A study of Homo sapiens with 16 samples.

Results

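Heat shock proteins and the DNAJ cochaperones, 68 genes of the 18417 that a transcript cluster of the array named alone, were followed in A375 cells and in clones that carry a catalase construct. The genes were taken by symbol: the HSPA (HSP70), HSPB (small heat shock protein), HSP90, HSPD1, HSPE1 and HSPH1 symbols, and DNAJA, DNAJB and DNAJC with a number, with pseudogene symbols left out and, for a gene with several clusters, the one of highest mean kept. They comprised 24 heat shock protein genes and 44 DNAJ genes. RefSeq listed 67 as protein coding, and DNAJB3 as a transcribed pseudogene. HSPA1A and HSPA1B, the major stress-inducible HSP70 genes, shared their clusters with each other and were not analysed here.

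A375 is a human amelanotic melanoma cell line. RNA of 16 cultures was hybridised to Affymetrix Human Gene 1.0 ST arrays, 4 biological replicates for each of 4 groups: untransfected A375 cells, PCDNA3 cells (A375 stably carrying the empty pcDNA3 vector), and the catalase-overexpressing A7 and G10 cells. A7 and G10 are each 1 clone, so that what catalase did and what sets one clone apart cannot be told apart, and transfected cells alone were kept in geneticin. No treatment or time point was varied, and the control for both clones was A375 and PCDNA3 averaged, each group weighing the same, as in the study. Array medians lay between 5.85 and 5.97 log2 units. Arrays correlated at r = 0.984 to 0.995 within groups and at 0.977 to 0.992 between groups.

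The labels were held against marker genes and against catalase itself. Of the 9 melanocyte lineage markers with a cluster, A375 had 8 and each other group 9 above the level of unexpressed genes, which was set at 5.18, the 95th percentile of 360 olfactory receptor clusters. Of 3 blood markers, PTPRC and CD3E were below it in every group and ITGAM was just above it in A7 (5.26) and G10 (5.25). The epithelial markers EPCAM and CDH1 were below it in every group, while 3 of 6 epithelial and 5 of 6 fibroblast markers lay above it in every group. The mean level of the melanocyte list was 7.74 in A375, 8.02 in PCDNA3, 8.70 in A7 and 8.51 in G10. Differences of the 9 markers from control ran from -0.14 to 2.35 in A7 and from -0.21 to 2.46 in G10. In each clone 3 were called higher and 0 lower. TYRP1 was higher than control by 2.35 in A7 and by 1.58 in G10, but PCDNA3 was also called higher than A375, by 1.28. The part of the shift in mean level in the chaperone results was not tested. Catalase (CAT) averaged 8.73 ± 0.20 (SD, n = 4) in A375, 8.56 ± 0.10 in PCDNA3, 9.02 ± 0.08 in A7 and 8.27 ± 0.38 in G10. The CAT difference from control was 0.37 in A7 (limma adjusted p = 0.12) and -0.38 in G10 (adjusted p = 0.053), and neither was called. The arrays labelled G10, catalase transfected, thus did not show a higher CAT signal than control. The design of the construct was not found in the sources used, and whether this cluster detects its transcript was not tested. The paper also lists CAT as raised in A7 and lowered in G10. That listing came from these same arrays, so it cannot test whether labels were exchanged. Group names below are those of the labels. In bulk RNA, fewer cells of a kind and less RNA per cell cannot be told apart.

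Heat shock proteins keep other proteins folded. HSP70 proteins bind exposed hydrophobic stretches and work in cycles of ATP hydrolysis, which the J domain of a DNAJ protein starts and which nucleotide exchange factors such as the HSP110 and BAG proteins end. HSP90 acts later, on clients that include many kinases, and the small heat shock proteins hold unfolded proteins without ATP. Heat shock factor HSF1 raises transcription of many of these genes under proteotoxic stress, through heat shock elements built of inverted GAA units.

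Promoters of 5 members are shown. HSPA2, HSPB8 and HSPB1 changed, while HSPA8 and HSP90AA1 carry full heat shock elements and were not called in any comparison. These 5 do not stand for the family. HSP90AB1 and HSPA6 also carry such an element and were called, in G10 against control and between the clones. Each promoter shown is the 250 bases before a start site in RefSeq, build GRCh38.p14, read in the direction of the gene. HSPA2 lies at chr14:64540491-64540740 and HSPB8 at chr12:119178681-119178930, both on the plus strand. HSPB1 lies at chr7:76302423-76302672 on the plus strand, HSPA8 at chr11:123062137-123062386 and the HSP90AA1 start used here at chr14:102087045-102087294, both on the minus strand. Capitals mark every run of 2 heat shock units, GAANNTTC or TTCNNGAA, overlaps merged. HSP90AA1 has a second start in the table, at chr14:102139750-102139999, whose window held no such run.
HSPA2: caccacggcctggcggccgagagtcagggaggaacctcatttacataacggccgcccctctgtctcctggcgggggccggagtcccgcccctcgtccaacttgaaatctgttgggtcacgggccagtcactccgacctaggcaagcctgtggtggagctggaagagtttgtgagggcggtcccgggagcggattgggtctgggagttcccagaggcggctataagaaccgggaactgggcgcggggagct
HSPB8: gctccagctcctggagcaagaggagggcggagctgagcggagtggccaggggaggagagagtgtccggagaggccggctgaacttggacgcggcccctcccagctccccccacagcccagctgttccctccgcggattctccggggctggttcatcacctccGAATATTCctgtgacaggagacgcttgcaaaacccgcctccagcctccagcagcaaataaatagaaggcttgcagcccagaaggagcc
HSPB1: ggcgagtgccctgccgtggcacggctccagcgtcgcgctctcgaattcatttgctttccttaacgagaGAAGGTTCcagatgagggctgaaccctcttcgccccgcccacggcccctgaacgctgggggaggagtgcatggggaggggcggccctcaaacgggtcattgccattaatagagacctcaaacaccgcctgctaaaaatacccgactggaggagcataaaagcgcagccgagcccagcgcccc
HSPA8: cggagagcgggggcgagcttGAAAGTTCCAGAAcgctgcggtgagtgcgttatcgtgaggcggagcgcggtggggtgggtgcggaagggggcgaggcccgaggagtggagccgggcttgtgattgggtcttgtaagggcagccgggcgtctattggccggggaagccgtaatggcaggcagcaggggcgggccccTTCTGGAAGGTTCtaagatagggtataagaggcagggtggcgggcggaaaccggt
HSP90AA1: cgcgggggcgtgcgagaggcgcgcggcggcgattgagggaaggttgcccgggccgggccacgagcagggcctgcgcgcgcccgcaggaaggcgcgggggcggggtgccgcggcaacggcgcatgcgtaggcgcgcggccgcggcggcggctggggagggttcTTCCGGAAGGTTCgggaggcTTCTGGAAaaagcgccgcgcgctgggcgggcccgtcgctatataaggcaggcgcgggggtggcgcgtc

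A run of 3 units, GAANNTTCNNGAA or TTCNNGAANNTTC, was found before 6 of the 61 members with a promoter in the RefSeq table (9.84%), against 152 of all 27305 genes there (0.557%). The 6 were HSPA8, HSPA6, HSP90AA1, HSP90AB1, HSPD1 and DNAJB6. Runs of 2 units, which every run of 3 contains, preceded 18 members (29.5%) and 3813 of all genes. HSPB8 and HSPB1 each held 1 such pair, and the HSPA2 window held neither form. A match is a string of letters, not a bound site, and 7 members had no window in the table.

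Most members changed little. In A7, 2 of the 68 members were called higher and 2 lower than control at an adjusted p under 0.05, beside 4.95% and 2.99% of all genes. In G10, 11 members were called higher and 5 lower, beside 13.2% and 10.5% of all genes. Set directly against A7, G10 had 8 members called higher and 8 called lower, beside 10.4% and 10.3%. No member differed between PCDNA3 and A375 by limma, where 0.0489% of all genes were called higher and 0.114% lower. At an unadjusted p under 0.05, 6 members were higher and 6 lower in PCDNA3, and a fit with array weights called 1 of them lower.

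Counted among expressed genes, the family was close to the background. Of the 57 members with a mean above the olfactory receptor level, 4 were called in A7 (7.02%; 9.21% of all 13279 such genes), 15 in G10 (26.3%; 29.9%) and 15 between the clones (26.3%; 25.7%). Their median absolute log2 fold change was 0.14 in A7, 0.18 in G10 and 0.15 between the clones, against 0.12, 0.18 and 0.19 for all such genes. Changes of at least 1 on the log2 scale with an adjusted p under 0.001 were held by 1 member in A7 (0.836% of all genes), 2 in G10 (2.38%) and 2 between the clones (2.81%). Those members were HSPA2 and HSPB8.

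**Figure D1:**
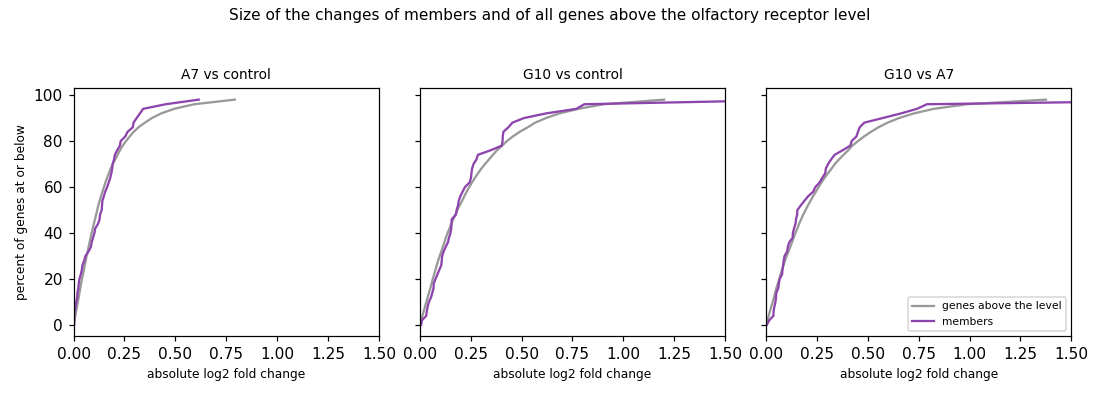
Percent of genes (vertical axis) whose absolute log2 fold change lies at or below the value on the horizontal axis, for the 57 members (purple) and all 13279 genes (grey) with a mean above the olfactory receptor level. The curves are drawn up to the 98th percentile and run close together, with medians of 0.18 for both in G10 against control; the changes of HSPA2 and HSPB8 beyond 1 lie outside the drawn range.

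HSPA2, an HSP70 best known from male germ cells, went in opposite directions in the clones. Its log2 intensity was 8.35, 8.75, 8.02 and 8.07 on the A375 arrays and 7.79, 7.61, 8.44 and 8.21 on the PCDNA3 arrays. The A7 arrays read 9.79, 9.55, 9.42 and 9.29. The G10 arrays read 6.17, 5.92, 6.03 and 6.28. All A7 arrays lay above all 8 control arrays and all G10 arrays below them. HSPA2 was 2.56-fold higher in A7 than in control (log2 1.36, SE 0.162, adjusted p = 8.4e-05) and 4.16-fold lower in G10 (log2 -2.06, SE 0.162, adjusted p = 2.9e-07). G10 and A7 differed 10.7-fold (log2 -3.41, adjusted p = 3.4e-09). Each of these calls was kept in all alternative fits (26 against control, 24 between the clones).

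HSPB8, a small heat shock protein that acts with the cochaperone BAG3 in the selective autophagy of misfolded proteins, fell in G10. It read 9.34, 9.52, 9.55 and 9.48 in A375, and 9.83, 9.52, 9.81 and 9.97 in PCDNA3. The A7 arrays gave 9.49, 9.5, 9.66 and 9.51, among the controls. The G10 arrays gave 6.26, 6.54, 7.22 and 7.51, all below every other array, with a spread (SD 0.58) wider than in A7 (SD 0.08). The fall was 6.71-fold against control (log2 -2.75, SE 0.175, adjusted p = 2.4e-08) and 6.31-fold against A7 (adjusted p = 2e-07). In A7 the difference from control was -0.09, with a 95% interval from -0.46 to 0.28. BAG3 was not called in any comparison, with differences of 0.00 in A7 and 0.08 in G10.

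HSPB1 (HSP27), the abundant actin-associated small heat shock protein, was lower in both clones. A375 arrays read 11.91, 12.23, 12.11 and 12.13, and PCDNA3 arrays 12.41, 12.10, 12.38 and 12.36. A7 arrays read 11.65, 11.58, 11.88 and 11.77, all below the controls, and G10 arrays 11.54, 11.61, 12.12 and 11.81, of which 1 lay among them. The difference was -0.49 in A7 (adjusted p = 0.013) and -0.44 in G10 (adjusted p = 0.0092). With A375 alone as the control neither clone was called, the highest adjusted p being 0.11 in A7 and 0.099 in G10, and the A7 call was also lost without A7 replicate 1 or 2 (adjusted p up to 0.058). Of the other small heat shock proteins, HSPB3, HSPB7 and HSPB9 were below the olfactory receptor level in all 4 groups and HSPB6 was not called.

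**Figure D2:**
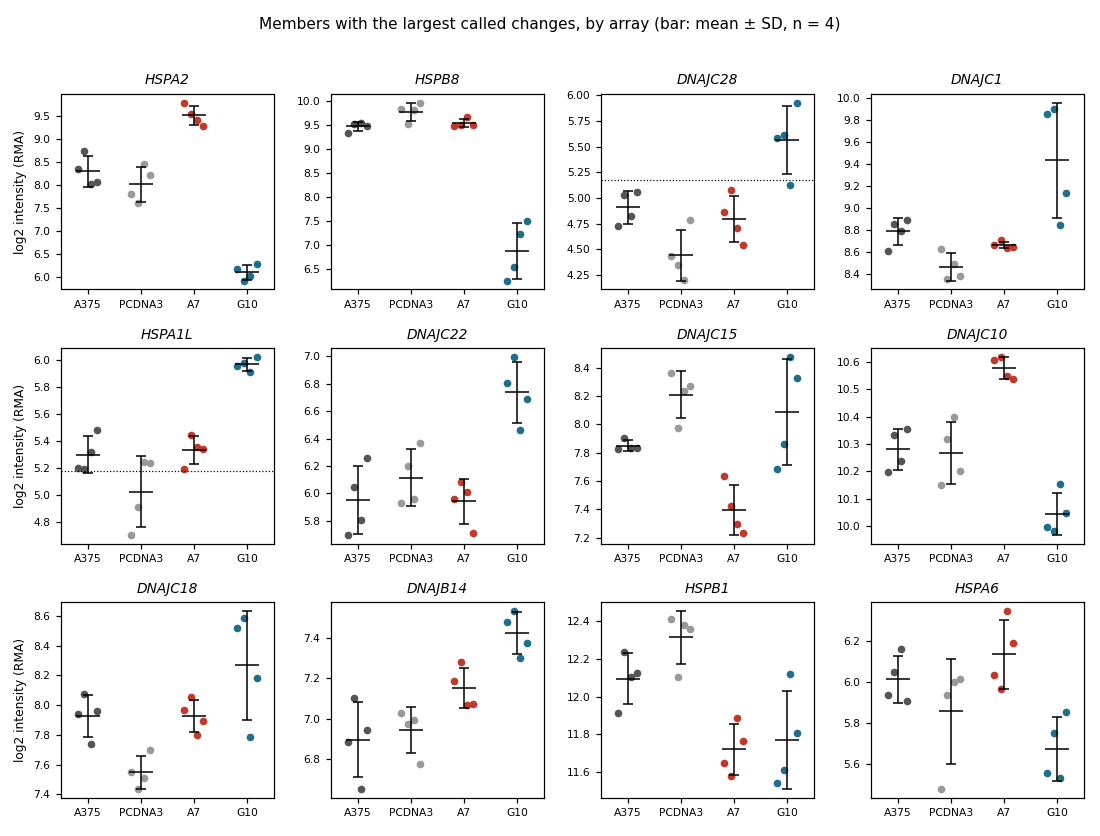
Log2 intensity (vertical axis) on each of the 16 arrays for the 12 members with the largest called changes, by group, with the mean and SD (n = 4) as bars and the olfactory receptor level of 5.18 as a dotted line where the axis reaches it. HSPA2 stands high in A7 and low in G10, and HSPB8 is low in G10 alone, while DNAJC1, DNAJC15 and DNAJC18 spread widely over the G10 arrays.

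Other HSP70 family members moved less. HSPA1L, a gene of the HSP70 cluster in the major histocompatibility complex, was near the level of unexpressed genes on the control arrays (4.70 to 5.48) and on the A7 arrays (5.19 to 5.44). It read 5.95, 5.97, 5.91 and 6.02 in G10, above all others. Because the control mean lay below the olfactory receptor level, its rise in G10 was at least 0.71 on the log2 scale (measured 0.81, adjusted p = 3.2e-05). The 3 clusters naming HSPA1L hold identical values and count as 1 measurement, and shared hybridisation with its close relatives HSPA1A and HSPA1B was not tested.

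HSPA6, which is silent in most cells until strong stress, read 6.03, 5.97, 6.35 and 6.19 in A7 and 5.56, 5.75, 5.53 and 5.86 in G10. The clones did not overlap, G10 being lower by 0.46 (adjusted p = 0.021), yet neither clone was called against control. Leaving out any of 4 arrays in turn (A7 replicate 3 or 4, G10 replicate 1 or 3) ended that call (adjusted p up to 0.074). HSPA13, a microsomal member, rose by 0.41 in G10 (adjusted p = 0.0082), which was lost with PCDNA3 alone as the control (adjusted p = 0.10). HSPA4, an HSP110 exchange factor, was 0.29 lower in G10 than in A7 (adjusted p = 0.035), a call lost in 10 of 24 alternatives. HSPA8, HSPA12A, HSPA12B, HSPA14, HSPA4L, HSPH1, HSPA5 and HSPA9 were not called in any comparison.

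A fixed list of stress-inducible and main constitutive chaperones had 15 measured genes. Of these, HSPB8, HSPA1L, HSPB1 and HSP90AB1 were called in G10, HSPB1 in A7, and HSPA6 only between the clones. HSPA1L stood on the list as an HSP70 gene, with a control mean near the level of unexpressed genes. Nothing here shows it to be inducible by stress. HSPB8 and HSPA1L are described above, and were set aside here because of their changes, so the ranges below cover a list trimmed after its values were seen. The 13 that remained were HSPA8, HSPA6, HSPA5, HSPA9, HSPH1, HSP90AA1, HSP90AB1, HSP90B1, HSPD1, HSPE1, DNAJA1, DNAJB1 and HSPB1. HSPB1, called in both clones, was then set aside too, which narrowed the ranges further. With it the lowest differences were -0.49 in A7 and -0.44 in G10. The 12 others had A7 differences between -0.14 and 0.20. Their 95% intervals together ran from -0.40 to 0.51, and 0 were called in A7. In G10 they ranged from -0.28 to 0.18, with intervals from -0.55 to 0.44, and 1 was called. That gene, HSP90AB1, the constitutive cytosolic HSP90, rose by 0.18 (adjusted p = 0.039), a call lost in 17 of 26 alternatives. Of the 6 members with a 3-unit heat shock element, 0 were called in A7, 1 in G10 (HSP90AB1) and 1 between the clones (HSPA6). Of the 55 members whose window lacked it, 4, 13 and 13 were called, and of all genes 7.94%, 23.7% and 20.7%, so counts of 0 or 1 among 6 genes set them apart from neither.

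The G10 arrays did not read alike for these genes. HSPH1, the inducible HSP110, read 10.62, 10.68, 11.68 and 11.55 in G10, 2 arrays below and 2 above the A7 values of 11.05, 11.07, 11.02 and 11.05. DNAJA1 read 9.03, 9.12, 9.96 and 10.03 in G10. The J protein DNAJB1 read 10.76, 10.80, 11.43 and 11.12. Over the 57 expressed members the median SD was 0.22 in G10, against 0.08 in A375, 0.13 in PCDNA3 and 0.10 in A7. The part of this spread in the G10 results was not tested beyond leaving out each array: without G10 replicate 3, 10 members in place of 5 were called lower than control. For HSPH1, DNAJA1, DNAJB1 and HSPB8, G10 replicates 1 and 2 read below replicates 3 and 4. For DNAJC1 they read above them, and HSPA2 showed no such division. Leaving out any single array cannot remove a division of this kind.

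**Figure D3:**
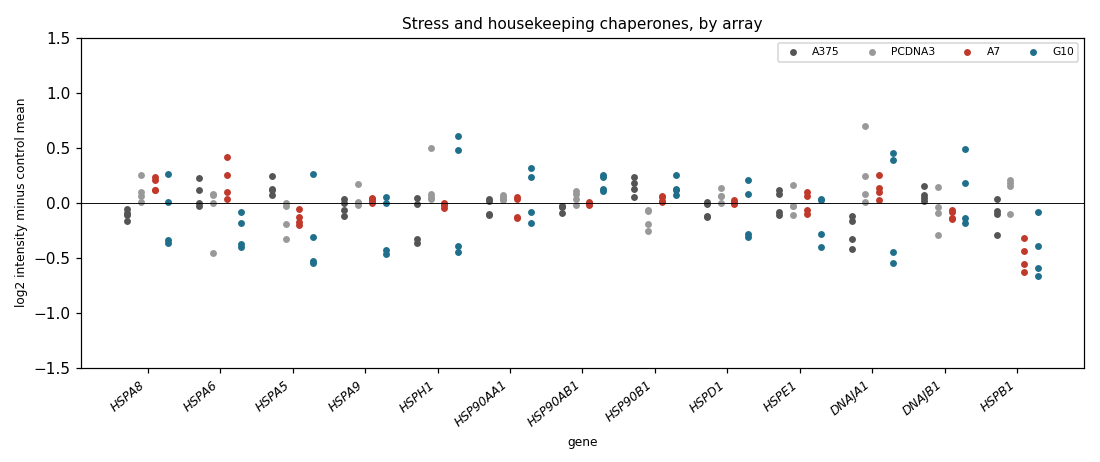
Log2 intensity minus the control mean (vertical axis) on each array for 13 stress and housekeeping chaperones (horizontal axis), coloured by group. Most arrays lie within 0.5 of the control mean, the 4 A7 arrays of HSPB1 lie below 0, and the G10 arrays of HSPH1 and DNAJA1 split into 2 above and 2 below.

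J proteins of the DNAJC class, whose J domain recruits HSP70 to a particular place or substrate, made up 27 of the 68 members and 8 of the 16 called in G10. Among the 27 DNAJC genes, 7 were called higher in G10 (25.9%, beside 13.2% of all genes) and 1 lower (3.70%, beside 10.5%), and in A7 1 was higher and 1 lower. Among these rises, the calls of DNAJC12, DNAJC16, DNAJC18 and DNAJC19 depended on which control group was used, as given below. The median log2 difference of the DNAJC genes in G10 was 0.12, against -0.03 for all genes. Among 13 DNAJB genes 1 was called in G10, the ER membrane protein DNAJB14, and among 4 DNAJA genes 1, the mitochondrial DNAJA3. In A7 none of these 17 was called.

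DNAJC1, an ER membrane J protein, read 9.86, 9.90, 8.85 and 9.14 in G10. The A375 arrays read 8.61, 8.86, 8.80 and 8.89, the PCDNA3 arrays 8.63, 8.36, 8.50 and 8.38, and the A7 arrays lay between 8.64 and 8.71. The third G10 array lay inside the A375 range. The G10 rise was 0.81 (SE 0.157, adjusted p = 0.0016), and was kept without any one array. Leaving out any one array does not remove the division between the higher and the lower G10 arrays.

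DNAJC22, a membrane J protein, was 6.80, 7.0, 6.46 and 6.69 in G10, above all 12 other arrays (5.70 to 6.37). It rose by 0.70 against control (adjusted p = 0.00083) and by 0.80 against A7 (adjusted p = 0.0011). DNAJC28 was below the olfactory receptor level on every array outside G10 and read 5.59, 5.62, 5.12 and 5.93 there, a rise of at least 0.39 (measured 0.89, adjusted p = 0.00035). DNAJB14 read 7.48, 7.53, 7.30 and 7.37 in G10 against 6.65 to 7.10 on the controls, a rise of 0.50 (adjusted p = 0.00064). The G10 calls of these 3 genes against control held in all 26 alternative fits.

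Smaller rises in G10 depended on the control. DNAJC18 read 8.52, 8.58, 7.78 and 8.18 in G10, overlapping the A375 arrays (7.74 to 8.08) but not the PCDNA3 arrays (7.44 to 7.70), and rose by 0.53 (adjusted p = 0.0066). DNAJC12, which binds the aromatic amino acid hydroxylases, rose by 0.44 (adjusted p = 0.0058). DNAJC19, a part of the mitochondrial import motor, rose by 0.25 (adjusted p = 0.008) and by 0.27 on its second cluster (adjusted p = 0.019). With A375 alone as the control these 3 calls were lost (adjusted p = 0.14, 0.25 and 0.25). DNAJC16 rose by 0.41 (adjusted p = 0.016) and lost its call with PCDNA3 alone (adjusted p = 0.12) and without G10 replicate 2 (adjusted p = 0.068).

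DNAJC10 (ERdj5), the disulfide reductase among the ER J proteins, moved in opposite directions. It read 10.61, 10.62, 10.55 and 10.54 in A7, above every control array (10.15 to 10.40), and 10.00, 9.98, 10.15 and 10.05 in G10. The differences were 0.30 in A7 (adjusted p = 0.012) and -0.23 in G10 (adjusted p = 0.024), and G10 was 0.53 below A7 (adjusted p = 0.00015). The difference between the clones was called in all 24 alternative fits. The A7 call missed the threshold without A7 replicate 1 (adjusted p = 0.052), and the G10 call was lost in 5 of 26 alternatives, among them without G10 replicate 1 or 2 (adjusted p up to 0.085).

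DNAJC15 (MCJ), a J protein of the mitochondrial inner membrane known as a brake on respiratory complex I, was lower in A7. It read 7.63, 7.42, 7.30 and 7.24 in A7, below all controls, with A375 at 7.83 to 7.90 and PCDNA3 at 7.97 to 8.36. G10 arrays ranged from 7.69 to 8.48. The A7 difference was -0.63 (adjusted p = 0.0081), lost with A375 alone as the control (adjusted p = 0.12), and G10 stood 0.69 above A7 (adjusted p = 0.0045). DNAJC19 was 0.31 higher in G10 than in A7 on the cluster used (adjusted p = 0.0058) and 0.04 on the other (adjusted p = 0.88), and their mean gave 0.17 (adjusted p = 0.083). DNAJA3 (Tid1), a cochaperone of mitochondrial HSP70, was 0.25 lower than control in G10 (adjusted p = 0.013) and 0.41 lower than A7 (adjusted p = 0.0014). The first of these calls was lost with A375 alone as the control or with arrays centred on the median (adjusted p up to 0.087). HSPA9, HSPD1 and HSPE1, the HSP70 and chaperonin of the same compartment, were not called.

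Further differences between the clones were small. DNAJC3, the ER protein also called p58IPK, was 0.45 lower in G10 than in A7 (adjusted p = 0.034), and the endosomal DNAJC13 was 0.34 lower (adjusted p = 0.035). DNAJB5 was 0.42 higher (adjusted p = 0.013), and DNAJC5, the cysteine string protein of secretory vesicles, 0.29 higher (adjusted p = 0.026). The DNAJC3 and DNAJC13 calls were each lost in 8 of 24 alternatives, with adjusted p up to 0.13, among them without A7 replicate 1 or 2 and without G10 replicate 1 or 2. The DNAJC5 call was lost in 5 (adjusted p up to 0.13), among them with the replicate block and without A7 replicate 3 or G10 replicate 3 or 4, and the DNAJB5 call in 1, with the groups compared fitted alone (adjusted p = 0.070).

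**Figure D4:**
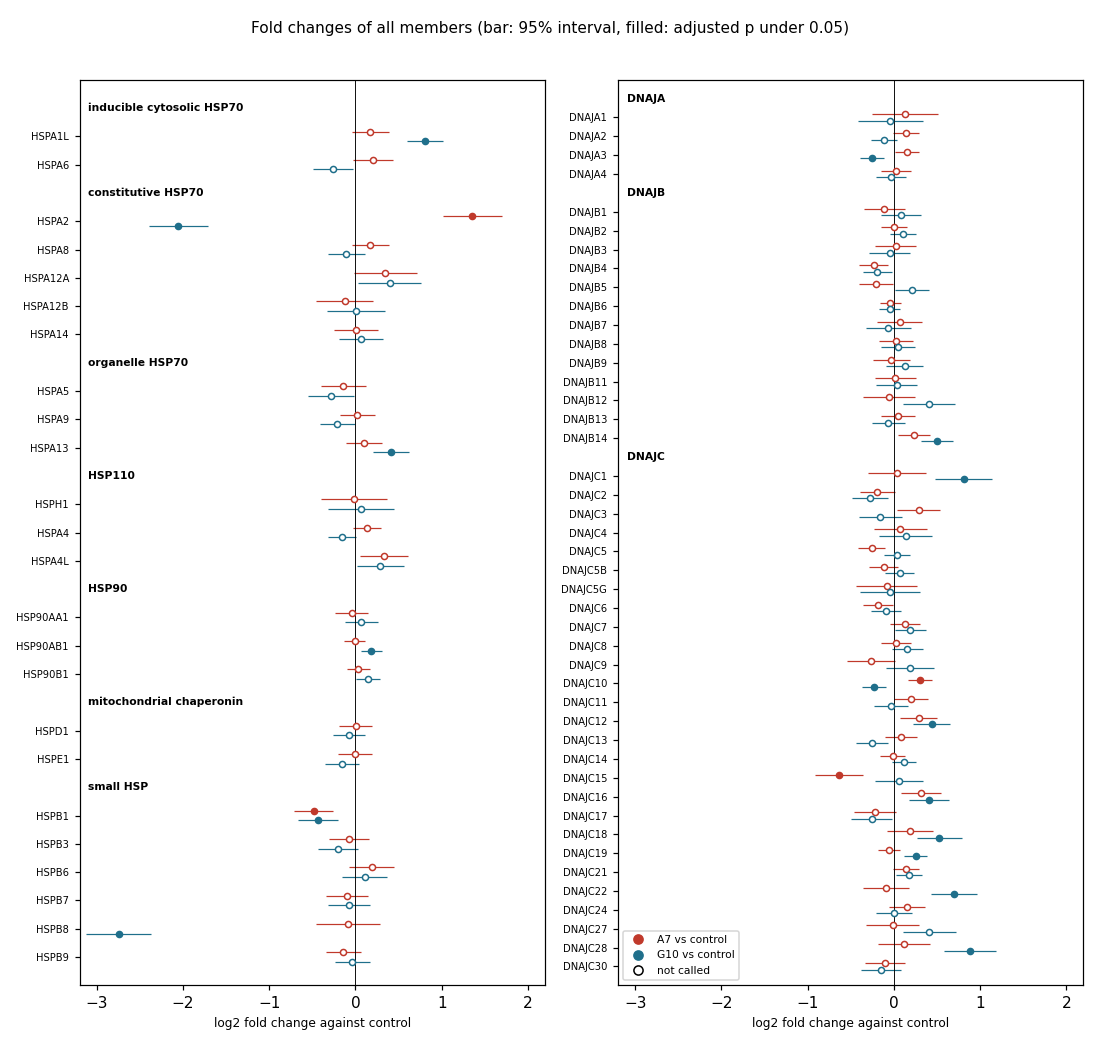
Log2 fold change against control (horizontal axis) of all 68 members in A7 (red) and G10 (blue), grouped by assigned role, with 95% intervals and filled points for an adjusted p under 0.05. HSPA1L is grouped with HSPA6 as inducible, which was not tested. HSPA2 and HSPB8 lie farthest from 0, and the filled points of the DNAJC class lie mostly right of 0 in G10.

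The 10 members DNAJA4, DNAJB3, DNAJB7, DNAJB8, DNAJB13, DNAJC5B, DNAJC5G, HSPB3, HSPB7 and HSPB9 were below the olfactory receptor level in all 4 groups, and none was called. In all, 45 of the 68 members were called in no comparison, 12 in 1, 9 in 2, and 2 in 3, these last being HSPA2 and DNAJC10.

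The genes that chaperones work with, taken from lists of cochaperones, chaperonins and other stress genes, were measured for 61 of 71 entries. In A7, 2 were called higher (3.28%, beside 4.95% of all genes) and 1 lower (1.64%, beside 2.99%). In G10, 11 were higher (18.0%, beside 13.2%) and 6 lower (9.84%, beside 10.5%). Between the clones 6 were higher (9.84%, beside 10.4%) and 4 lower in G10 (6.56%, beside 10.3%). Among chaperones named outside the HSP and DNAJ scheme, 1 of several lists, 4 of 10 were called lower in G10 (10.5% of all genes) and 0 higher (13.2%).

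CRYAB, the small heat shock protein αB-crystallin, had the largest fall of these. It read 7.21, 7.40, 7.47 and 6.65 in G10. Controls ranged from 8.72 to 9.35, and A7 read 9.74, 9.70, 9.12 and 9.01. G10 was 3.46-fold below control (log2 -1.79, adjusted p = 2.2e-06) and 4.63-fold below A7 (log2 -2.21, adjusted p = 1.2e-06), and in A7 the difference of 0.42 was not called. CRYAB came from a partner list and was not counted with the small heat shock proteins among the members. Of those 6, HSPB8 and HSPB1 were called lower in G10, beside 10.5% of all genes. The HSPB1 call was lost with A375 alone as the control (adjusted p = 0.099). The calls of these 3 genes were separate tests on the same arrays.

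Other falls in G10 were those of SERPINH1 (HSP47, the collagen chaperone) by 0.71, CHORDC1 (an HSP90 cochaperone) by 0.68, CLPB (a mitochondrial disaggregase) by 0.51, STIP1 (HOP, which links HSP70 to HSP90) by 0.46 and HYOU1 (an ER relative of HSP110) by 0.44 on the log2 scale. Adjusted p-values were 0.009, 0.0063, 0.0013, 0.0072 and 0.0026. SERPINH1 read 8.80, 8.78, 8.05 and 7.83 on the G10 arrays.

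Cochaperone rises in G10 included CDC37L1, an HSP90 partner, by 0.62 (adjusted p = 7.1e-05), the immunophilin FKBP8 by 0.53 (adjusted p = 0.0013) and PFDN6, a prefoldin subunit, by 0.61 (adjusted p = 1.1e-05). PFDN6 also rose in A7, by 0.40 (adjusted p = 0.0019). BAG4, an HSP70 exchange factor, rose by 0.51 in A7 (adjusted p = 0.001) and by 0.29 in G10 (adjusted p = 0.021), and BAG6 by 0.38 in G10 (adjusted p = 0.00023). BAG1, CCT8 and PIH1D1 were also called higher in G10 than in control, and CCT6A was called lower in G10 than in A7. HSF1 read 7.99, 8.06, 7.88 and 7.93 in A7, below all other arrays, but missed the threshold against control (difference -0.39, adjusted p = 0.057) and was called between the clones (0.57, adjusted p = 0.006).

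HMOX1, the heme oxygenase induced by heat and oxidants, was 0.91 below control in A7 (adjusted p = 0.04). Its controls stood apart, with A375 at 7.59 to 8.21 and PCDNA3 at 9.0 to 9.17, and the A7 arrays at 7.33 to 7.87 overlapped the A375 arrays.

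**Figure D5:**
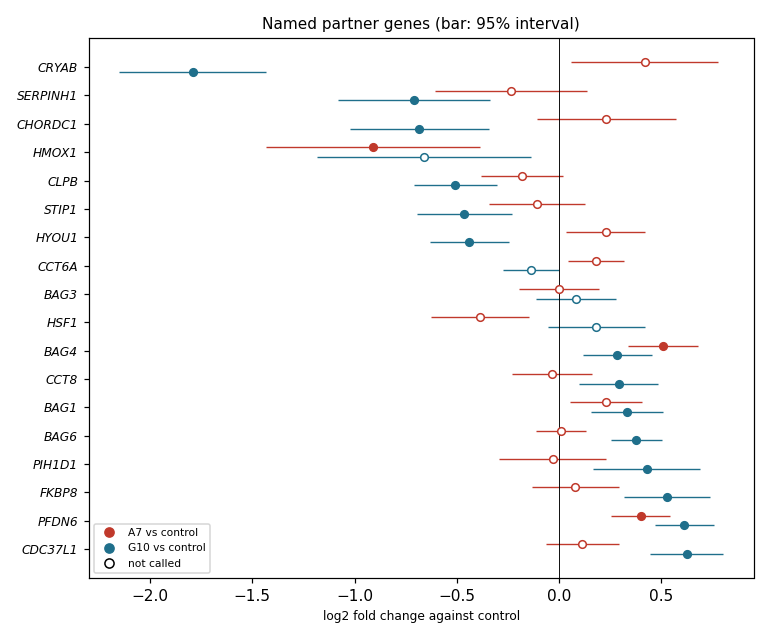
Log2 fold change against control (horizontal axis) of 18 named partner genes in A7 (red) and G10 (blue), with 95% intervals and filled points for an adjusted p under 0.05. CRYAB lies at -1.79 in G10 and 0.42 in A7, and CDC37L1, PFDN6 and FKBP8 lie right of 0.5 in G10.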

How the data were processed

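Per the labels and the methods, the authors normalised the arrays by RMA and deposited log2 intensities for 33297 transcript clusters. Of these, 19460 named 1 gene symbol in the platform annotation, 1754 several and 12083 none. Clusters with several symbols (11 naming a family gene) were not used. Group means over all 16 arrays were fitted with limma 3.58.1 in R 4.3.3, with empirical Bayes moderation and Benjamini-Hochberg adjustment over all clusters, and the script was tested on simulated data. A change with one side below the olfactory receptor level is given as a bound.

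By rule, the text names members called with a log2 difference of at least 0.5, a fixed set of stress chaperones, HSF1, BAG3 and up to 4 called genes per partner list. The remaining called members and CAT were added after their values were seen. So were the G10 array values of HSPH1, DNAJA1, DNAJB1, CRYAB and SERPINH1. Members and lists were chosen with earlier results of these data known. Promoters came from RefSeq, GRCh38.p14. Alternatives covered the control, the normalization, filters on dim clusters, weights for arrays, the replicate number as a block, and each array left out in turn. The number of arrays limits the precision. The p-values rest on the spread between cultures, pooled over all 4 groups, and do not speak for further clones. Over the 57 expressed members the median SD was 0.22 in G10, against 0.08 in A375, 0.13 in PCDNA3 and 0.10 in A7. A pooled spread can be smaller than that of G10, so p-values for G10 may be too small.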

Additional observations from a re-analysis of the deposited data

Results flagged for a closer look

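Within groups of 4 arrays, 1 array lay apart from the others in 9 of 164 groups of values examined, where chance gives about 1 in 20. The gap to the nearest array, as a share of the range of the group, was 0.952 for CCT6A (highest PCDNA3 array), 0.932 for DNAJC15 (highest A375 array), 0.918 for SERPINH1, 0.906 for HSP90AB1 and 0.859 for STIP1 (lowest A375 arrays), 0.911 for HYOU1 (highest G10 array), 0.901 for HSPH1 (highest PCDNA3 array), 0.849 for HSPA6 (lowest PCDNA3 array) and 0.844 for HSPB8 (highest A7 array).

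The change against control differed between the clones for 16 members, by the limma test of G10 against A7. On the log2 scale, G10 minus A7 was -3.41 for HSPA2, -2.66 for HSPB8, -0.53 for DNAJC10, -0.46 for HSPA6, -0.45 for DNAJC3, -0.41 for DNAJA3, -0.34 for DNAJC13 and -0.29 for HSPA4. It was 0.80 for DNAJC22, 0.77 for DNAJC1, 0.77 for DNAJC28, 0.69 for DNAJC15, 0.63 for HSPA1L, 0.42 for DNAJB5, 0.31 for DNAJC19 (0.04 on its other cluster) and 0.29 for DNAJC5. HSPA2 and DNAJC10 were called in both clones with opposite signs.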

How the results depend on the processing

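No called change turned its direction in any alternative. The genes picked by the naming rule had 4100 values under the alternatives. Of these values, 86, from 37 differences, had the opposite sign to the main value. Among the 86, 0 were called in either fit (lowest adjusted p 0.16). One of these differences was HSPB8 in A7, at -0.09 against the averaged control and 0.07 against A375 alone. With A375 alone as the control, 0 members were called lower in A7 (2 in the main analysis) and 2 in G10 (5). A stricter limit (log2 change of 1 or more, adjusted p under 0.001) left 1 member higher and 0 lower in A7, 0 higher and 2 lower in G10, and 0 higher and 2 lower between the clones. Centring arrays on the median gave 3 lower in G10 and 5 lower between the clones (8). Array weights gave 10 lower in G10 and 1 lower in PCDNA3 than in A375. Fitting the groups compared alone gave 5 higher and 5 lower between the clones.

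Leaving out 1 array at a time, A7 had 1 to 3 members called higher and 1 to 3 lower, G10 had 10 to 13 higher and 4 to 10 lower, and the clones differed in 7 to 10 higher and 4 to 10 lower. The A7 counts fell to 1 without A7 replicate 1 (higher and lower) or replicate 2 (lower). Between the clones, 5 were lower without A7 replicate 1, 2 or 3, and 4 without G10 replicate 1. No member differed between PCDNA3 and A375 in any of these.

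The replicate numbers did not pair the samples: deviations of same-numbered arrays from their group means correlated at r = -0.16 to 0.23, with 3 of 24 pairs over 0.1, and 4 of 16 arrays lay closest to their own number. With the replicate block, 5 members were lower between the clones, and the other counts of calls stayed within 1.5 times. Counting pseudogene symbols that end in P without digits, an alternative chosen after seeing the data, gave 13 higher in G10. Signal near the olfactory receptor level limits DNAJC28 and HSPA1L, whose changes are bounds.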
